A study of Mus musculus with 21 samples.

Results

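Stfa1, Stfa2, Stfa3 and Cstdc5 are 4 of the 20018 named genes measured on these arrays and belong to the mouse stefin A family of protease inhibitors. They were chosen by symbol, through the RefSeq accession of each probe, in a study of the transcription factors Bach1 and Bach2. The choice was made knowing that their signal was lower in progenitors carrying a Bach2 vector than in progenitors carrying a control vector, so that comparison is described here without a test for these genes. Each gene was read by 1 probe, which was A_55_P1963017 for Stfa1, A_52_P487686 for Cstdc5, A_51_P504815 for Stfa3 and A_66_P139618 for Stfa2.

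Stefins are small, mostly intracellular inhibitors that sit in the active-site cleft of papain-like cysteine proteases, such as the lysosomal cathepsins, and block them reversibly. Humans have a lone stefin A gene (CSTA), whereas the mouse carries a tandem cluster of stefin A copies that are very similar in sequence. Several of the mouse copies are known as transcripts of neutrophils and other myeloid cells and of the skin, and stefin B (Cstb), the relative outside the cluster, is made by most cell types.

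Single-colour Agilent mouse arrays were hybridised with RNA of 21 samples in 7 groups of 3. Common lymphoid progenitors (CLPs) were sorted from bone marrow of mice deficient in both Bach1 and Bach2, labelled DD, and of wild-type (WT) mice, with RNA pooled from mice. Multipotent progenitors (MPPs; Lin-, c-kit+, Sca-1+, Flt3mid) of WT mice, pooled from 4 mice per experiment, were primed overnight in SCF at 50 ng/ml, IL-6 at 10 ng/ml and IL-3 at 5 ng/ml and then infected. B220+ Bach2-vector cells had received the Bach2-GFP retrovirus, 24 h of multilineage culture and 6 days of B-lineage culture, and were sorted as GFP+ B220+. Bach2-vector MPPs had the same virus, and control-vector MPPs the MSCV-GFP virus, each with 2 days of multilineage culture before the GFP+ sort. Follicular B cells (FoB) of Bach2KO and of WT mice were stimulated with an anti-IgM Fab' fragment at 10 ug/ml for 24 h. Neither the age nor the sex of the animals was found in the labels. The B220+ cells thus differed from both MPP groups in culture and sort gate as well as time, and tests were made within each of the 3 experiments. Nothing in the labels says that the 3 arrays of a group come from separate animals or cultures, and for follicular B cells the label speaks of a single RNA sample, so p-values may measure technical spread.

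The 75th percentile of the spot signal was 97.3 to 358 for FoB arrays, against 2858 to 5127 for CLP arrays and 2071 to 3377 for MPP arrays, and 50.9 to 58.8% of spots were well above background on FoB arrays, 66.8 to 81.5% on CLP arrays and 62.6 to 81.4% on MPP arrays. The main Bach2 probe stood at -0.07, -1.01 and -0.09 in Bach2KO FoB and 3.49, 3.06 and 3.55 in WT FoB, on a log2 scale relative to each array's 75th percentile that is used for all levels below (limma, -3.76 ± 0.36 (SE), adjusted p = 0.000919). In DD CLPs it was at 1.17, 0.10 and -0.27, against 3.46, 1.49 and 2.38 in WT CLPs (adjusted p = 0.999, limma). Bach1 was at 2.41, 1.14 and 0.88 in DD CLPs, against 1.87, 1.96 and 2.17 in WT CLPs, and those groups overlapped. The same Bach2 probe overlapped between Bach2-vector MPPs (-0.92, -2.03 and -2.57) and control-vector MPPs (-3.87, -2.96 and -2.15), whereas a second Bach2 probe was at -1.25, -3.57 and -3.90 in Bach2-vector MPPs, against -8.57, -7.11 and -6.34 in control-vector MPPs, of which only the last was well above background. Where these probes lie relative to the deletion and the vector insert is not given in the sources used here, so they check the labels only in part. In B220+ Bach2-vector cells the lymphoid progenitor gene Dntt was at 5.41, 5.67 and 5.65, against -1.93, -1.22 and -1.51 in control-vector MPPs, but Ms4a1, a gene of mature B cells, was not well above background in any MPP-derived group.

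The RefSeq annotation of GRCm38.p6 places all 4 genes on chromosome 16, in a run that begins with Csta1 and ends with Stfa3. This run holds 22 annotated genes, 12 of them protein-coding, which are in order Csta1, Stfa2l1, Cstdc4, Csta3, Csta2, Stfa1, Cstdc3, Cstdc6, Cstdc5, Gm7260, Stfa2 and Stfa3. The 250 bases upstream of each member's annotated start are shown because they are where the copies can be compared with each other. They lie at chr16:36276898-36277147 on the plus strand for Stfa1, and on the minus strand at chr16:36367571-36367820 for Cstdc5, chr16:36455393-36455642 for Stfa3 and chr16:36408364-36408613 for Stfa2. They are written 5' to 3' along the gene, from RefSeq and build GRCm38.p6. Capitals mark TCAGCA, which is the reverse complement of TGCTGA, an end stretch of the Maf recognition element, which Bach and small Maf proteins bind together, and also TTGCNNAA (a motif of C/EBP factors) and the TATA-like TTTAAA.
Stfa1: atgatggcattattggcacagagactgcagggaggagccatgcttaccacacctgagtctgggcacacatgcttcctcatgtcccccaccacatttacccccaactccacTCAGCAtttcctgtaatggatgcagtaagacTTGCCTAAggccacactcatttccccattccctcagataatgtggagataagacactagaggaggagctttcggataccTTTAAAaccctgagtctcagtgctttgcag
Cstdc5: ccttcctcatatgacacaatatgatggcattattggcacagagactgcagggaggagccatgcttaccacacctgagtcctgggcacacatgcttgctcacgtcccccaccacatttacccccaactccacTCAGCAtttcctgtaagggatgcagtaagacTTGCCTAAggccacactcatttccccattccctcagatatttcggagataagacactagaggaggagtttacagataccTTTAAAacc
Stfa3: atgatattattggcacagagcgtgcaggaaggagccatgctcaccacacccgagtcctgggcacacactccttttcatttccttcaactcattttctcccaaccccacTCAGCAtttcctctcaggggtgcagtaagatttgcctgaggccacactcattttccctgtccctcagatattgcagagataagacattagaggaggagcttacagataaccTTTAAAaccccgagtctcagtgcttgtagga
Stfa2: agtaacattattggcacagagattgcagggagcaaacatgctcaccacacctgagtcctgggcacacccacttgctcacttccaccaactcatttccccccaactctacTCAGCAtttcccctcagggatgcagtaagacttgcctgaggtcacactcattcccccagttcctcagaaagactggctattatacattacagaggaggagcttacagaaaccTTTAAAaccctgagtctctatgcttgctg

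The upstream windows were close copies of each other. Stfa1 matched Stfa3 at 83.5% of aligned bases, Cstdc5 at 81.2% and Stfa2 at 81.0%, and the least alike pair, Stfa2 with Cstdc5, matched at 71.0%. This was not so of the members alone: the window of Stfa2l1 matched them at 70.1 to 89.4% and that of Cstdc4 at 65.1 to 72.3%, whereas those of Csta2 and Csta1 matched at 45.3 to 48.1% and 39.0 to 48.7%. Motifs were searched on both strands from 250 bases before to 50 after the start, in 32851 mouse promoter windows of this length. TGCTGA lay in 4 of 4 member windows and 19.5% of all windows. Its position was -140 in Stfa1, -119 in Cstdc5, -142 in Stfa3 and -141 in Stfa2, counted from the annotated start, with a further match at 13 in Stfa2 and 11 in Stfa3. TTTAAA lay in 4 of 4 and in 13.2% of all windows. TTGCNNAA was found in 2 of 4, at -109 in Stfa1 and -88 in Cstdc5, and in 10.8% of all windows, and TGANTCA (an AP-1 motif) in 1 of 4, Stfa3, and in 7.81% of all windows. Among the relatives, the windows of Csta1, Csta3 and Stfa2l1 held TGCTGA, and those of Cstdc4 and Csta2 did not. TTTAAA also lay in the windows of Csta1, Csta3, Stfa2l1 and Cstdc4, and TTGCNNAA in that of Csta3. Such matches describe letters and are no evidence of binding. Probe sequences were not used here, so how far a probe also reads the other copies is uncertain for every member of the family.

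Control-vector MPPs held the highest mean level of all 4 genes among the 7 groups. Levels of different experiments are set side by side here as a description only, since the 75th percentile they are relative to was far lower on FoB arrays, which raises the lowest readable level there. The lowest signal well above background stood at -5.34 to -3.34 on FoB arrays, -7.29 to -6.10 on CLP arrays and -7.08 to -5.81 on MPP-derived arrays. Stfa1 averaged 2.76 ± 0.80 (SD, n = 3 for this and the other group means) in control-vector MPPs, followed by -1.05 ± 1.12 in B220+ Bach2-vector cells and -3.04 ± 1.30 in Bach2-vector MPPs. Arrays of control-vector MPPs and B220+ cells did not overlap, and those of B220+ cells and Bach2-vector MPPs did. In Bach2KO FoB, WT FoB, DD CLPs and WT CLPs Stfa1 was well above background on 1, 0, 0 and 1 of 3 arrays, so these groups have no order among them. Cstdc5 began with the same 3 groups, at 3.63 ± 0.53 in control-vector MPPs, -0.21 ± 0.91 in B220+ Bach2-vector cells and -1.68 ± 1.56 in Bach2-vector MPPs. Among these 3 groups the gap was again after control-vector MPPs only. The lowest Bach2-vector array, at -3.33, also lay above every FoB and CLP array, the highest of which was at -4.77. Cstdc5 was well above background on 0 of 6 FoB arrays, 0 of 3 DD CLP arrays and 1 of 3 WT CLP arrays, which likewise gives no order among those groups.

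Stfa3 was well above background on all 21 arrays. It averaged -3.26 ± 1.02 in B220+ Bach2-vector cells, -4.21 ± 0.16 in Bach2-vector MPPs and -0.92 ± 1.08 in control-vector MPPs, of which only control-vector MPPs stood clear of the other MPP-derived groups. In Bach2KO FoB it averaged -3.23 ± 0.72, against -3.57 ± 0.39 in WT FoB, and in DD CLPs -5.46 ± 0.18, against -5.25 ± 0.45 in WT CLPs, with overlap in both pairs. Stfa2 averaged -3.39 ± 0.76 in B220+ Bach2-vector cells, -3.98 ± 0.24 in Bach2-vector MPPs and -1.87 ± 1.61 in control-vector MPPs. Its means in the CLP and FoB groups lay between -4.15 ± 0.57 in DD CLPs and -3.17 ± 0.48 in Bach2KO FoB, and each group overlapped the next in order of mean.

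**Figure D1:**
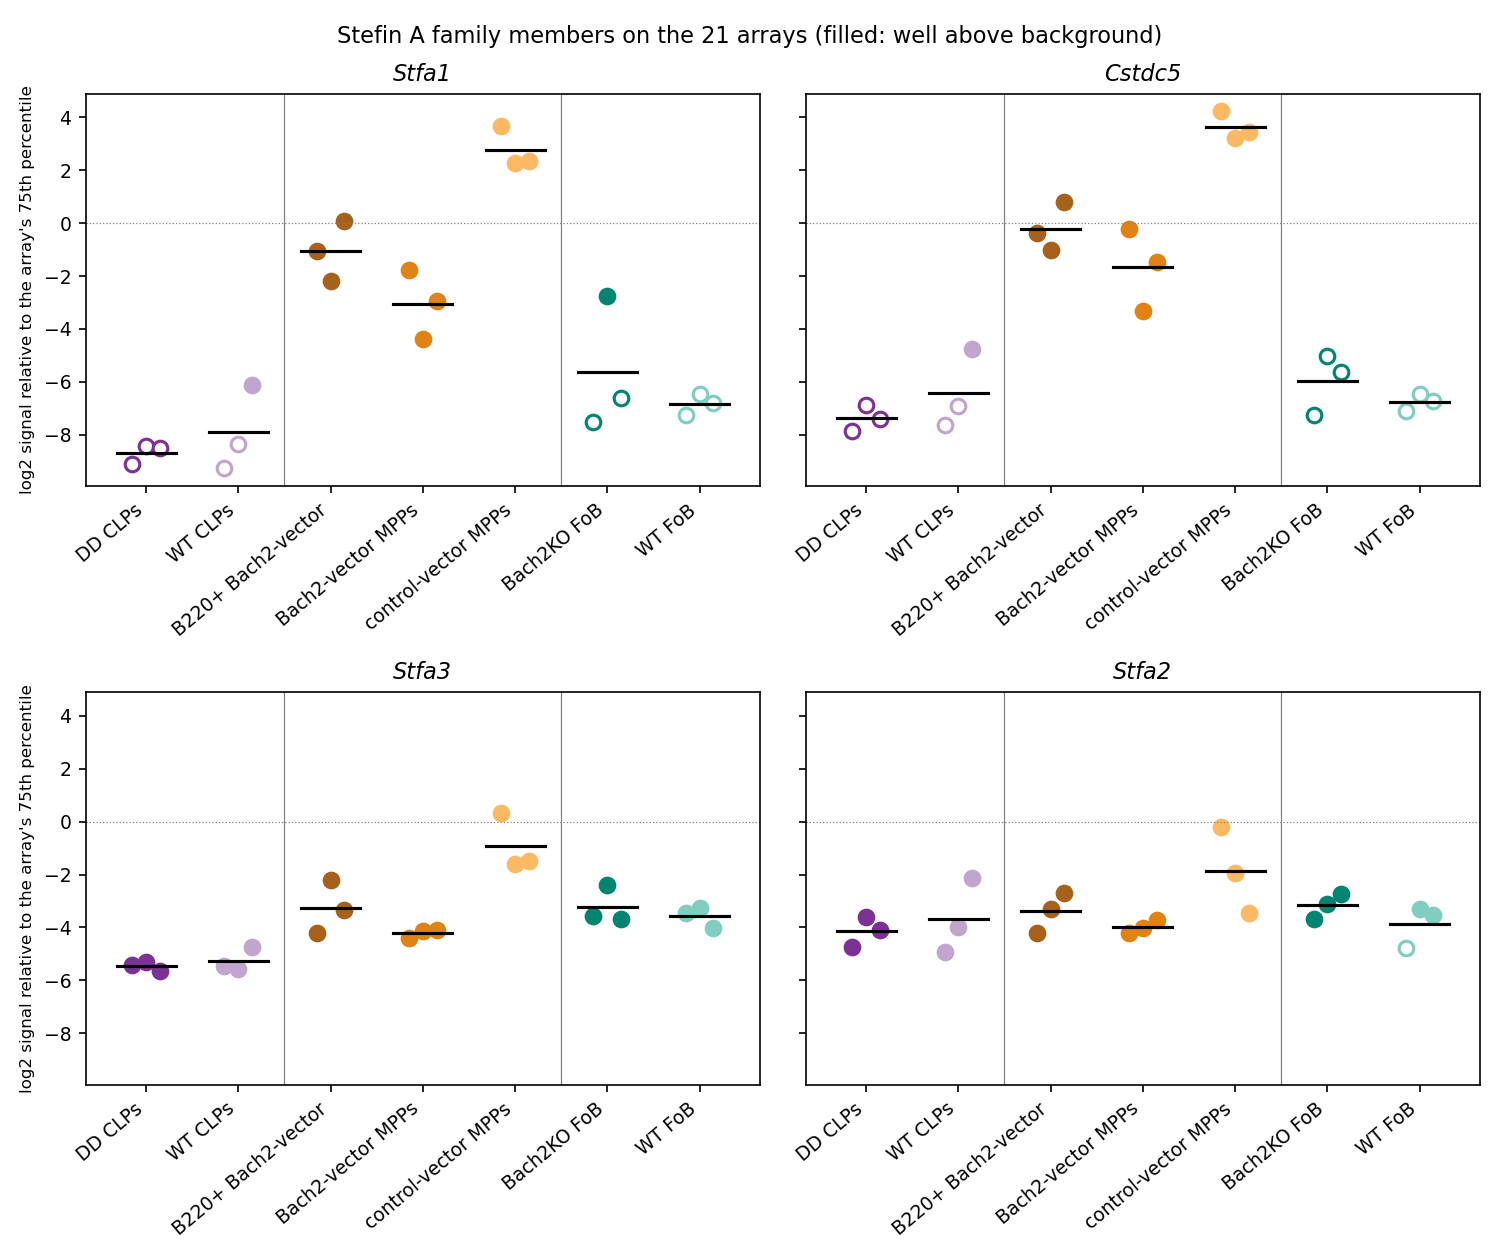
Level of each of the 4 genes on all 21 arrays (vertical axis, log2 above or below the array's 75th percentile), by group (horizontal axis). Filled points are arrays where the probe was well above background, open points arrays where it was not, and black lines are means of 3 arrays; control-vector MPPs have the highest mean in every panel, while CLP and FoB points of Stfa1 and Cstdc5 are mostly open.

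The comparison of Bach2-vector with control-vector MPPs asked what forced Bach2 does to myeloid and lymphoid programmes in progenitors. All 4 genes were lower in the Bach2-vector MPPs, with no overlap of arrays, where 7.29% of the 16988 genes tested lay lower without overlap and 0.724% passed the test as lower; nothing is read from the count, since the genes were chosen on this contrast. Stfa1 stood at -1.79, -4.38 and -2.96 in Bach2-vector MPPs, against 3.68, 2.26 and 2.34 in control-vector MPPs. Cstdc5 was at -0.24, -3.33 and -1.46 in Bach2-vector MPPs, against 4.22, 3.21 and 3.45 in control-vector MPPs. In both genes Bach2-vector replicate 2 was the lowest of the 3 and control-vector replicate 1 the highest. Stfa3 lay at -4.39, -4.15 and -4.09 in Bach2-vector MPPs, against 0.33, -1.62 and -1.47 in control-vector MPPs. Stfa2 lay at -4.19, -4.01 and -3.72 in Bach2-vector MPPs, against -0.22, -1.94 and -3.43 in control-vector MPPs. The Bach2-vector arrays of these last genes were tightly grouped, and the control-vector arrays were spread out, with Stfa2 in control-vector replicate 3 just above the Bach2-vector arrays.

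As a description, the log2 difference was -5.80 ± 0.75 (SE) for Stfa1, or 55.8-fold lower in Bach2-vector MPPs. Cstdc5 differed by -5.30 ± 0.75 (39.5-fold), Stfa3 by -3.29 ± 0.61 (9.78-fold) and Stfa2 by -2.11 ± 0.72 (4.32-fold). The replicates were hybridised on a pair of slides: within slide 1, with 1 array a group, the difference was -5.47 for Stfa1, -4.46 for Cstdc5, -4.72 for Stfa3 and -3.97 for Stfa2. Within slide 2, with 2 arrays a group, it was -5.97 for Stfa1, -5.72 for Cstdc5, -2.58 for Stfa3 and -1.18 for Stfa2. These are bulk samples, in which fewer cells of a type and less RNA per cell cannot be told apart.

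The other genes of the stefin family were listed with earlier results of these data known, and those of the cluster are tandem relatives whose probes may read more than 1 copy, so they are no independent support. Of the 7 with a named probe, 5 were well enough above background to be tested, and 4 of these 5 fell in Bach2-vector MPPs by limma with Benjamini-Hochberg adjustment. Csta2 was at -0.64, -2.94 and -2.71 in Bach2-vector MPPs, against 3.25, 2.02 and 3.07 in control-vector MPPs (-4.87 ± 0.59, 29.3-fold lower, adjusted p = 0.00507). Csta3 was at -3.60, -5.21 and -4.83 in Bach2-vector MPPs, against 0.71, -1.20 and -0.76 in control-vector MPPs (-4.13 ± 0.55, 17.5-fold lower, adjusted p = 0.00764). Stfa2l1, the neighbour of Csta1, differed by -4.69 ± 0.77 (25.7-fold lower, adjusted p = 0.0180) and Cstdc4 by -4.92 ± 0.87 (30.2-fold lower, adjusted p = 0.0255), both limma. Without 1 array at a time 2 to 4 of the 5 passed: Stfa2l1 then reached an adjusted p of 0.0872 and Cstdc4 of 0.110 at the highest, and Cstdc4 also missed it (adjusted p = 0.0588) when only the arrays of both groups were fitted. Cstb, outside the cluster, was at 2.75, 2.34 and 2.87 in Bach2-vector MPPs, against 3.55, 3.18 and 3.70 in control-vector MPPs (-0.82 ± 0.36, limma adjusted p = 0.577). The median difference of the 5 was -4.69, beside -0.02 over all genes tested. Csta1 and Cstdc6 were not well above background on any MPP array.

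**Figure D2:**
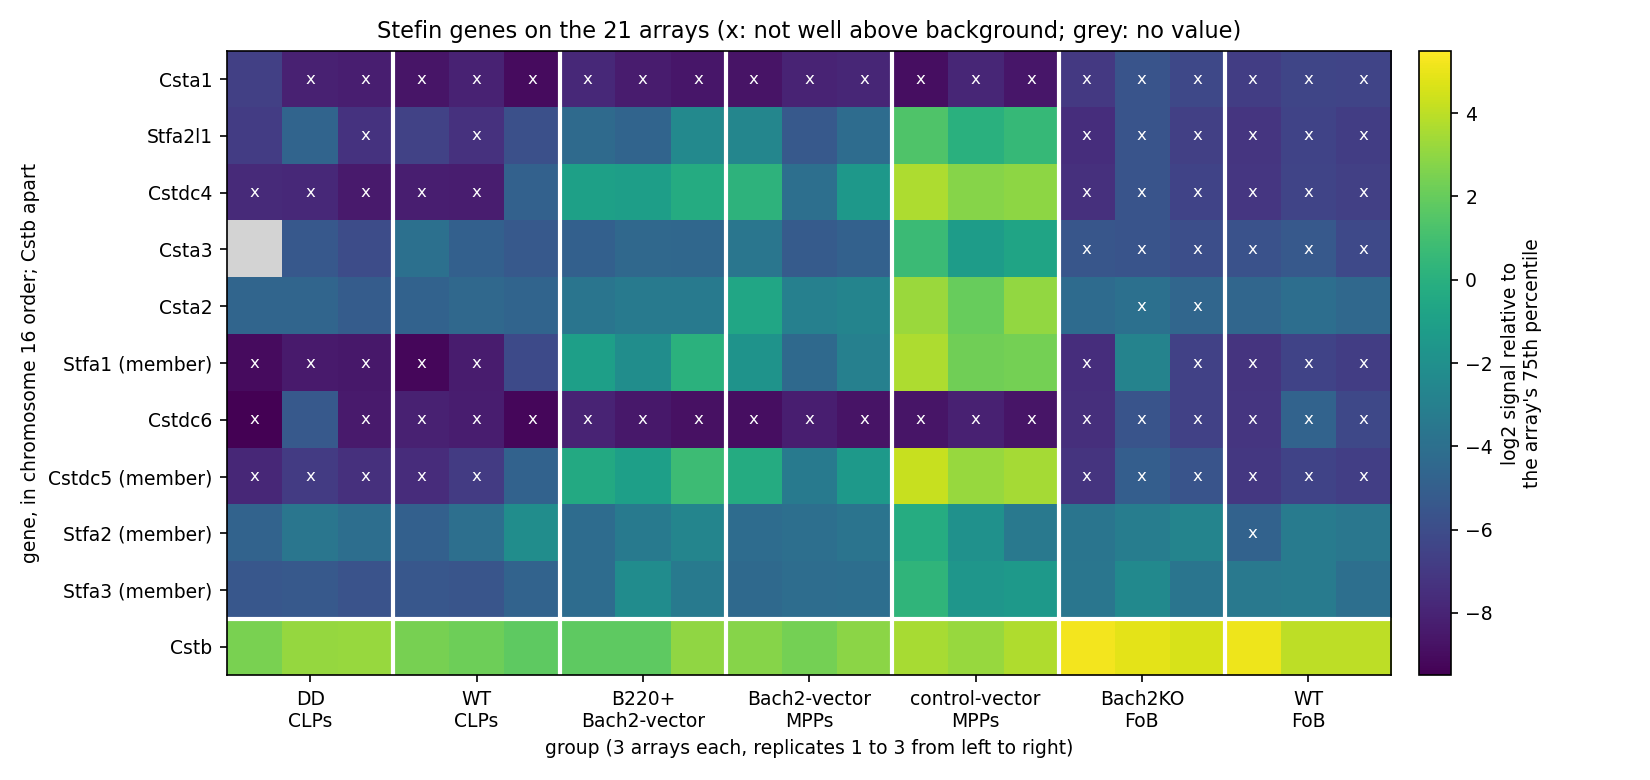
Log2 level relative to the array's 75th percentile (colour) of the 10 stefin A family genes with a named probe, in chromosome 16 order, and of Cstb, set apart, on the 21 arrays (columns, by group). Crosses mark values not well above background and grey a missing value, and colours are to be compared along a row; Stfa1, Cstdc5, Cstdc4 and Csta2 stand out on the 3 control-vector arrays, and Cstb is high on all 21.

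The comparison of B220+ Bach2-vector cells with control-vector MPPs shares the control-vector arrays with the comparison that chose the genes, so its tests are no independent support. Stfa1, Cstdc5 and Stfa3 fell, which is 3 of 4 where 7.45% of the 16988 genes fell. In B220+ Bach2-vector cells Stfa1 was at -1.04, -2.17 and 0.08, against 3.68, 2.26 and 2.34 in control-vector MPPs (-3.80 ± 0.75, 14.0-fold lower, limma adjusted p = 0.0120). In the same B220+ cells Cstdc5 was at -0.39, -1.02 and 0.78, against 4.22, 3.21 and 3.45 in control-vector MPPs (-3.84 ± 0.75, 14.3-fold lower, limma adjusted p = 0.0112). B220+ replicate 3 was the highest of its group for both genes and still lay below every control-vector array. Stfa3 was at -4.23, -2.20 and -3.34 in B220+ Bach2-vector cells, against 0.33, -1.62 and -1.47 in control-vector MPPs (-2.34 ± 0.61, 5.05-fold lower, limma adjusted p = 0.0381). Its groups did not overlap, as was so for 23.5% of genes in this direction, but its call was lost with the quantile scaling (adjusted p = 0.0537), with the replicate block (0.0558), with only the arrays of both groups (0.0808) and without 1 of 5 of the 6 arrays (up to 0.110). Stfa2 was at -4.20, -3.29 and -2.68 in B220+ Bach2-vector cells, against -0.22, -1.94 and -3.43 in control-vector MPPs, and control-vector replicate 3 lay within the B220+ range (-1.52 ± 0.72, limma adjusted p = 0.188).

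All 3 B220+ arrays sat on slide 1, with only 1 control-vector array, so slide and group are partly mixed. With slide as a block the difference was -4.89 for Stfa1 (adjusted p = 0.00710), -4.85 for Cstdc5 (0.00892), -2.87 for Stfa3 (0.0478) and -2.24 for Stfa2 (0.145). Within slide 1 alone it was -4.73 for Stfa1, -4.43 for Cstdc5, -3.58 for Stfa3 and -3.17 for Stfa2, with 3 B220+ arrays and 1 control-vector array. The same 4 relatives fell as in Bach2-vector MPPs, of 5 tested: Csta2 at -6.23 ± 0.59 (adjusted p = 0.000395), Csta3 at -4.19 ± 0.55 (0.00180), Stfa2l1 at -4.43 ± 0.77 (0.00669) and Cstdc4 at -3.92 ± 0.87 (0.0204), all limma. Cstdc4 missed the threshold without 1 of 4 of the 6 arrays, at up to 0.0682. Cstb differed by -1.29 ± 0.36 (limma adjusted p = 0.0514) and passed with the replicate block (0.0265). Cstb also passed with normexp, with the variance trend, with a filter on all arrays of at least 1 group, and without B220+ replicate 3. The median of the 5 was -4.19, beside -0.29 over all genes.

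Between B220+ Bach2-vector cells and Bach2-vector MPPs, which again share arrays with the vector comparison, none of the 4 passed the test, where 6.17% of genes did. Stfa1 was at -1.04, -2.17 and 0.08 in B220+ cells, against -1.79, -4.38 and -2.96 in Bach2-vector MPPs (2.00 ± 0.75, limma adjusted p = 0.153). Cstdc5 differed by 1.47 ± 0.75 (adjusted p = 0.259), Stfa3 by 0.95 ± 0.61 (0.353) and Stfa2 by 0.59 ± 0.72 (0.634). Arrays overlapped between these groups for every member. With slide as a block the difference was smaller, at 0.91 for Stfa1, 0.46 for Cstdc5, 0.42 for Stfa3 and -0.12 for Stfa2. Csta2 ran the other way, at -3.69, -3.31 and -3.35 in B220+ cells, against -0.64, -2.94 and -2.71 in Bach2-vector MPPs (-1.35 ± 0.59, limma adjusted p = 0.202), and with slide as a block it passed (-2.32, adjusted p = 0.0392).

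**Figure D3:**
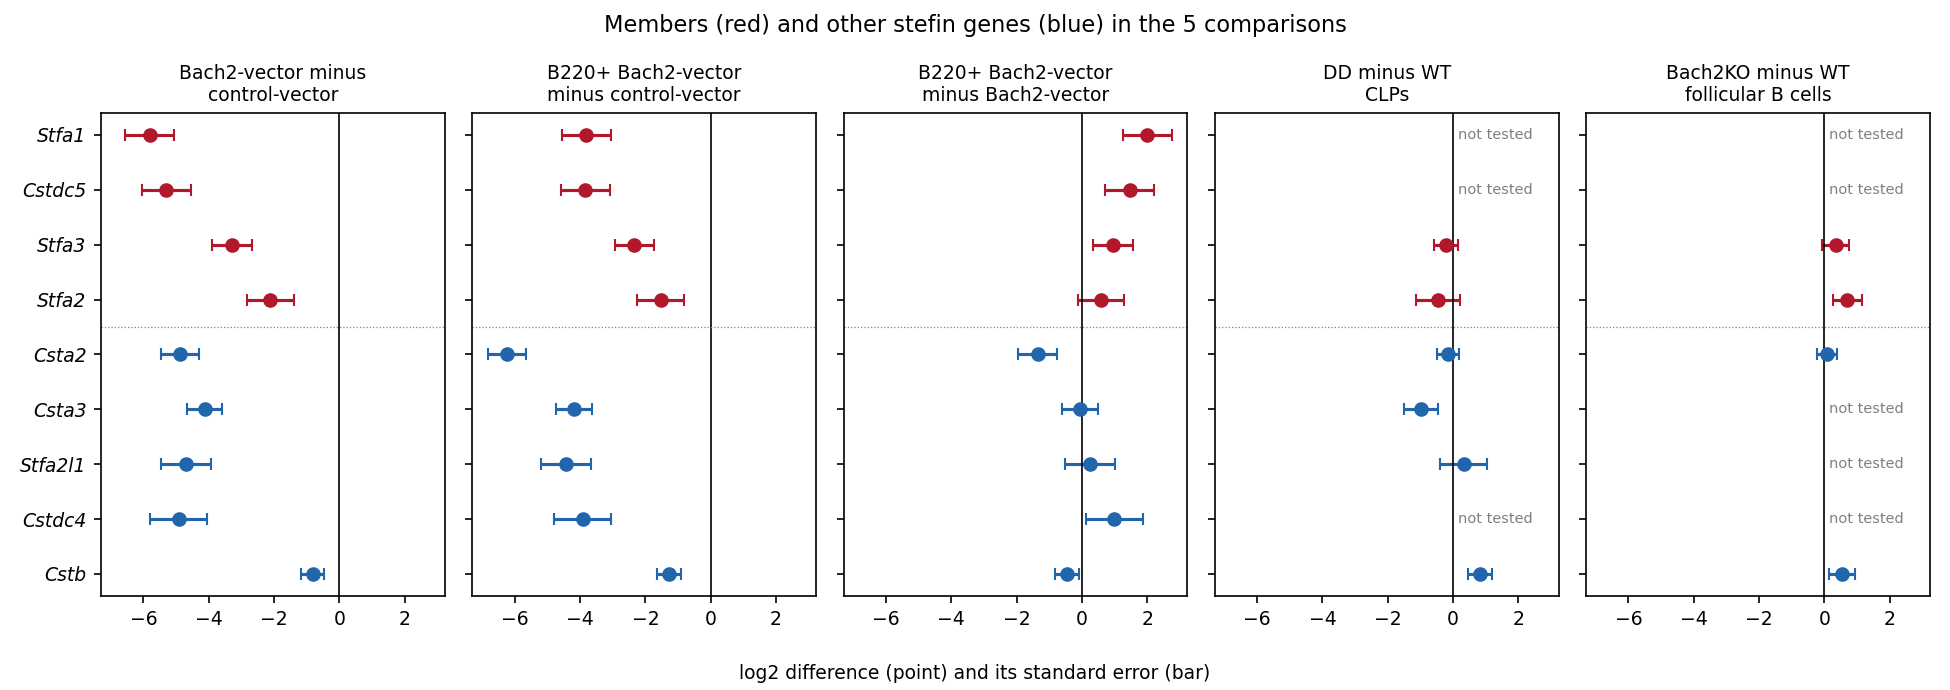
Log2 difference with its standard error (horizontal axis; first-named group minus second) of the 4 members (red) and of Csta2, Csta3, Stfa2l1, Cstdc4 and Cstb (blue) in the 5 comparisons. In the vector comparison Stfa1 lies at -5.80 and Stfa2 at -2.11; "not tested" marks genes too rarely above background.

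Markers of granulocytes, in which stefin A transcripts are abundant, were read beside these results. The mean log2 level of 21 granulocyte genes was 0.50, -0.31 and 0.83 in Bach2-vector MPPs, against 1.71, 1.03 and 1.25 in control-vector MPPs, without overlap. In that comparison 18 of the 20 tested granulocyte genes were lower, with 1 passing the test, and their median difference was -0.58, beside medians of -0.02 for all genes and -4.69 for the stefin relatives. Of all genes 52.8% were lower and 0.724% passed as lower. In B220+ Bach2-vector cells the list averaged 1.69, 1.54 and 1.82, which overlaps the control-vector values, but its genes went both ways: 9 of 20 were higher and 11 lower than in control-vector MPPs, with 3 rising and 4 falling by limma. Of all genes 4.65% rose and 7.45% fell in this B220+ comparison. The granulocyte genes ran between Mmp8, at -5.19 ± 0.61 (adjusted p = 0.00108), and Ngp, at 5.85 ± 0.84 (adjusted p = 0.00288), which was well above background on 3 of 3 B220+ and 1 of 3 control-vector arrays. Mmp8 also fell in Bach2-vector MPPs (-6.09 ± 0.61, limma adjusted p = 0.00241). The summed level of the list ran over 566 to 668 in B220+ cells, 489 to 590 in Bach2-vector MPPs and 635 to 697 in control-vector MPPs. Retnlg, a gene of mature neutrophils, was not well above background in any of these 3 groups. It was the only such gene of the list in each MPP group and 1 of 2 in B220+ cells. Of the 21 genes, 18 to 20 were well above background on each control-vector and Bach2-vector array, and 18 to 19 on each B220+ array. The summed level of 14 monocyte and macrophage genes was 98.9 to 148 in B220+ cells and 44.0 to 67.2 in Bach2-vector MPPs, against 80.7 to 110 in control-vector MPPs. Mast cell and basophil genes, 8 in the list, summed to 46.3, 22.9 and 173 in B220+ cells and 21.3, 46.2 and 54.3 in Bach2-vector MPPs, against 8.65, 24.1 and 16.1 in control-vector MPPs. B220+ replicate 3, the highest B220+ array for Stfa1 and Cstdc5, was thus the highest for these genes too, and its sum of 6 erythroid genes was 6.41, against 1.03 and 0.74 on the other B220+ arrays. Without that array the difference from control-vector MPPs was -4.37 for Stfa1 (limma adjusted p = 0.00806) and -4.33 for Cstdc5 (0.00931). The part of these cell types in the members' differences was not tested.

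**Figure D4:**
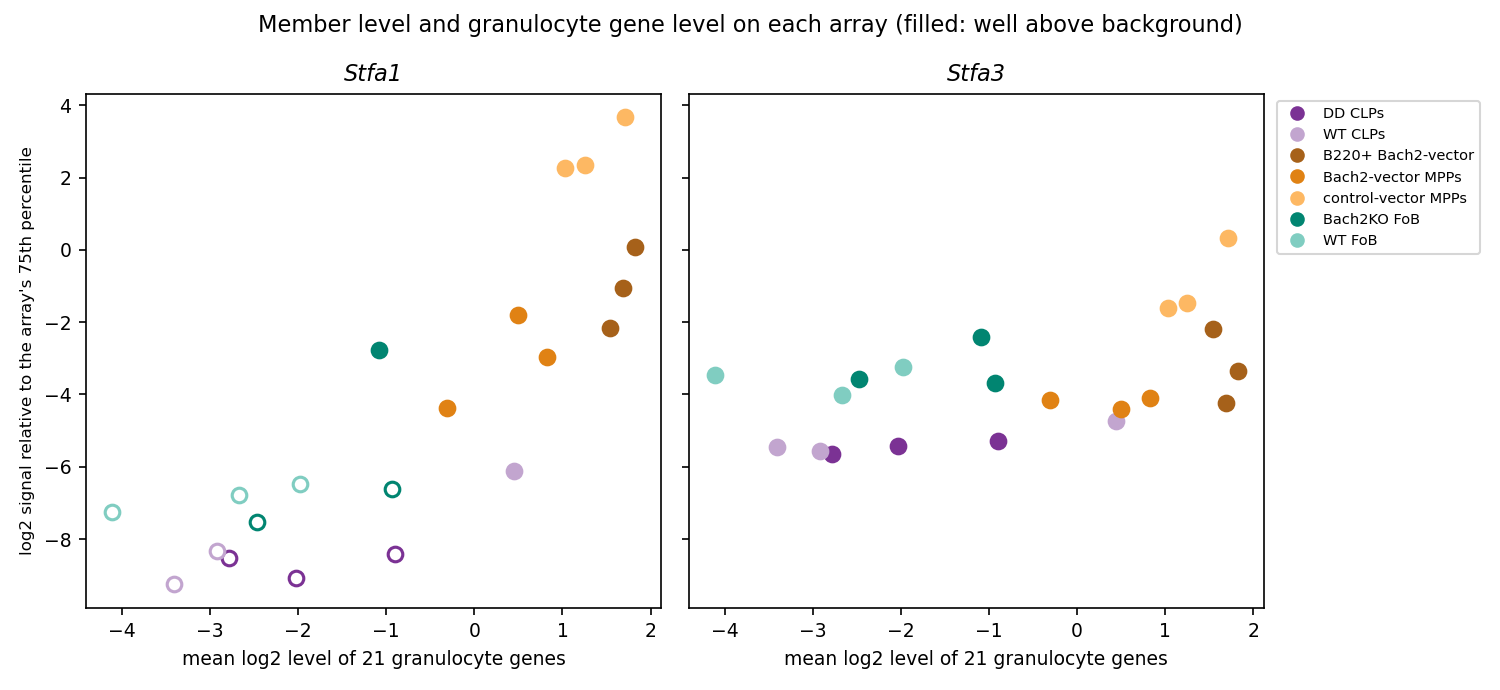
Log2 level of Stfa1 and of Stfa3 (vertical axes) against the mean log2 level of 21 granulocyte genes (horizontal axis), both relative to the array's 75th percentile, with 1 point per array, coloured by group, and open points not well above background. The B220+ arrays, at 1.54 to 1.82, lie among or to the right of the control-vector arrays, at 1.03 to 1.71, and below them on both vertical axes.

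The CLP comparison shares no array with the vector comparison and asks the opposite question, what loss of Bach1 and Bach2 does in lymphoid progenitors. Stfa1 and Cstdc5 were well above background on 0 of 3 DD arrays and 1 of 3 WT arrays, WT replicate 3, and were not tested. Neither Stfa2 nor Stfa3 passed the test, where 0.00608% of 16456 genes did (1 gene, with 619 at an unadjusted p under 0.05). Stfa2 was at -4.74, -3.61 and -4.09 in DD CLPs, against -4.91, -4.00 and -2.15 in WT CLPs (-0.46 ± 0.68, limma adjusted p = 0.999). Stfa3 was at -5.43, -5.29 and -5.64 in DD CLPs, against -5.45, -5.56 and -4.73 in WT CLPs (-0.21 ± 0.36, limma adjusted p = 0.999). WT replicate 3 was the highest WT array for all 4 members, with Stfa1 at -6.11 and Cstdc5 at -4.77 there. Without it the difference turned to 0.31 for Stfa2 and 0.05 for Stfa3. The granulocyte list averaged -2.03, -0.90 and -2.78 on the DD arrays, against -3.41, -2.92 and 0.45 on the WT arrays. WT replicate 3, the last of these, had 21 of 21 granulocyte genes well above background, and its part in the members' values was not tested. None of the 4 relatives tested passed in CLPs.

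In stimulated follicular B cells, whose comparison also shares no array with the others, Stfa1 and Cstdc5 were near or below background. Stfa1 was well above it on 1 of 3 Bach2KO arrays, replicate 2 at -2.77, and 0 of 3 WT arrays, and Cstdc5 on 0 of 6, so neither was tested. Bach2KO replicate 2 was also the array with the lowest 75th percentile, 97.3. Of the 2 genes tested none passed, where 2.71% of 13068 genes did. Stfa2 was at -3.66, -3.12 and -2.72 in Bach2KO FoB, against -4.78, -3.29 and -3.55 in WT FoB, the first of these WT values not well above background (0.71 ± 0.45, limma adjusted p = 0.654). It was higher in the Bach2KO array of each of the 3 replicate numbers, and with the replicate block it passed (adjusted p = 0.0339), in a fit that called 2976 genes in place of 354. Stfa3 was at -3.58, -2.40 and -3.70 in Bach2KO FoB, against -3.46, -3.25 and -4.01 in WT FoB (0.35 ± 0.42, limma adjusted p = 0.786), and without Bach2KO replicate 2 its difference was -0.07. The granulocyte list averaged -2.47, -1.08 and -0.93 in Bach2KO FoB, against -4.11, -1.98 and -2.67 in WT FoB. Of its 12 tested genes 11 were higher and 0 passed, where 38.1% of all genes were higher. The part of this list in the members' values was not tested.

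Within the family, patterns across the 21 arrays were closest between Cstdc5 and Cstdc4 (Pearson r = 0.993) and between Stfa1 and Cstdc5 (r = 0.978). Both pairs also deviated together from the group means, at r = 0.919 for Cstdc5 with Cstdc4 and 0.873 for Stfa1 with Cstdc5. Stfa2 and Stfa3 were less alike, at r = 0.717, or 0.560 for deviations from the group means. Stfa1 with Stfa2 gave r = 0.619, or 0.489 for deviations, and Stfa3 with Cstdc5 gave 0.737, or 0.256. Arrays of a group share source and culture, and probes of near-identical genes may read the same RNA, so these values are descriptions.

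Among 16572 genes, those most like Stfa1 over the 21 arrays were Ascl2 (r = 0.931), Inhba (0.927), Gda (0.927), Inpp5j (0.925) and Rnd1 (0.919). Those most like Cstdc5 were Gda (0.962), Inhba (0.957), Dgat2 (0.946), Slc22a4 (0.943) and Cd14 (0.943), so Gda, which encodes guanine deaminase, and Inhba, a subunit of activin, stood on both lists. Stfa3 was most like Oit3 (0.902), the cystine transporter gene Slc7a11 (0.887), the Fc receptor gene Fcgr3 (0.864), Fst (0.856) and Rhoj (0.852). The likest to Stfa2 reached lower values, with Mmp8, the neutrophil collagenase gene, at 0.743 and Ikbke at 0.699, before Gstm3 (0.698), Acta2 (0.693) and Acap3 (0.692). Over the 9 MPP-derived arrays alone the genes most like Stfa1 and Cstdc5 began with the same 3, Adam8 (0.978 for Stfa1 and 0.984 for Cstdc5), Rhou (0.976 and 0.981) and Card19 (0.976 and 0.977). The first for Stfa3 there was Rps19bp1 (0.980), and for Stfa2 Ccdc57 (0.915).

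Cysteine cathepsins, the targets of stefins, were read with legumain (Lgmn), a lysosomal cysteine protease of another family, from a list of 11 genes that were all tested in MPPs. None of the 11 passed between Bach2-vector and control-vector MPPs, where 1.8% of all genes did, and the median difference of the 11 was 0.19. In B220+ Bach2-vector cells against control-vector MPPs 2 of 11 rose and 3 fell, where 4.65% of all genes rose and 7.45% fell. Lgmn rose by 3.52 ± 0.57 (limma adjusted p = 0.00492). Ctsh, which encodes an aminopeptidase, rose by 2.15 ± 0.55 (0.0376), and Ctsc, Ctsl and Ctsf fell, with adjusted p-values of 0.0375, 0.0311 and 0.0491 by limma. Each of the calls but that of Lgmn was lost under some other setting, at adjusted p-values of up to 0.164 for Ctsh, 0.16 for Ctsc, 0.106 for Ctsl and 0.206 for Ctsf. Without 1 array Ctsl reached 0.113. Against Bach2-vector MPPs 1 of 11, Ctsf, fell in B220+ cells (-1.72 ± 0.43, limma adjusted p = 0.0484), and its call was lost with the replicate block (0.0672). The adjusted p of Ctsf reached 0.190 over the settings and 0.158 without 1 array. Of all genes 4.16% fell in that comparison. In CLPs 0 of 11 passed, where 0.00608% of all genes did.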

How the data were processed

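Spot intensity values had been background-corrected and processed by Feature Extraction 10.7.3.1, per the file headers, while version 9.1 is given in the submitters' processing notes. The authors' deposited value table held the same intensity values on all 21 arrays. Levels are log2 intensities minus the 75th percentile of the same array, taken without control spots. Outlier-marked spots were left out, spots of a probe averaged, and 0 gene spots were saturated. Of 55681 probes 26413 were named through their RefSeq accession, to 20018 symbols, and 29268 were not. Each gene was read from its probe with the highest mean. A gene was tested when 3 or more arrays of its experiment had it well above background and each group had 2 or more values. The test was limma 3.58.1 (lmFit, eBayes; R 4.3.3, and data.table in version 1.17.8), with Benjamini-Hochberg adjustment over all genes, at 0.05. The 9 MPP-derived arrays shared an estimate of spread. The method was tested on simulated data. Python 3.11.15 with pandas 2.3.3, numpy 2.4.6, Biopython 1.88 and matplotlib 3.10.9 read the files, aligned promoters and drew the figures.

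The members and gene lists were chosen with earlier results of these data known. Genes named are the members, the stefin relatives, the 5 genes most like each member, and up to 4 genes of a list with the smallest p in a comparison; Ctsf, Dntt, Ms4a1, Retnlg and Hba-a1 were named after their values were seen. Replicate numbers are those of the labels. Arrays of the same number deviated together at r of 0.22 to 0.43 in CLPs, 0.30 to 0.65 in the vector comparison and 0.54 to 0.86 in FoB. In the B220+ comparisons r was -0.06 to 0.13 and 0.08 to 0.12, which does not pair them. Arrays of different numbers reached 0.07 in CLPs, 0.31 in the vector comparison and 0.50 in FoB. In CLPs each number had its own slide, and in the vector comparison and FoB replicates 2 and 3 shared slide 2. In CLPs pairing by number and a shared slide can thus not be told apart. Within slide 2, FoB arrays deviated together at r of 0.72 and 0.54 with the same number, and 0.50 and 0.23 with the other. In the vector comparison these values were 0.41 and 0.30 with the same number, and 0.31 and 0.22 with the other. Alternatives were quantile scaling, normexp background correction with an offset of 50 (on median signals, chosen after seeing the files, which hold no mean signals), other filters and probe choices, a variance trend, blocks, fits of only the groups compared, and leaving out each array.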

Additional observations from a re-analysis of the deposited data

How the results depend on the processing

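Another scaling moved the median of all genes from -0.29 to -0.08 between B220+ Bach2-vector cells and control-vector MPPs and from -0.25 to -0.07 against Bach2-vector MPPs (quantile), and genes higher and lower there were 980 and 1037 in place of 790 and 1266, and 451 and 601 in place of 341 and 707. The number of genes passing was 0 in CLPs under quantile scaling, every named probe, the replicate block and the slide block, against 1. It was 670 with only the arrays of both groups, against 1048, between B220+ cells and Bach2-vector MPPs, and 105 with normexp, 2976 with the replicate block and 1195 with the slide block, against 354, in FoB. Leaving out 1 array gave 0 to 27 genes in CLPs, 96 to 198 in the vector comparison (305 with all arrays), 1028 to 2638 (2056) and 448 to 1699 (1048) in the B220+ comparisons, and 110 to 371 in FoB. In FoB the split was 96 higher and 9 lower with normexp, against 287 and 67. The replicate block, the pairing by labelled number, changed the calls given for Stfa2 in FoB, Cst7 in the vector comparison, Stfa3, Cstb and Ctsf (0.0687) in B220+ cells against control-vector MPPs, and Ctsf against Bach2-vector MPPs, and no other call of a named gene.

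None of the 4 members changed sign in the vector comparison or against control-vector MPPs: over the settings Stfa1 was at -5.90 to -5.47, Cstdc5 at -5.34 to -5.12, Stfa3 at -3.33 to -2.76 and Stfa2 at -2.11 to -1.77 in the vector comparison, and without 1 array at -6.43 to -5.13, -6.02 to -4.48, -3.64 to -2.67 and -2.90 to -1.29. Differences that changed sign were none of them past the threshold. In CLPs these were Stfa3 with normexp (0.035), Csta3 with outlier spots kept (0.039), and without 1 array Stfa2 (-1.07 to 0.31), Stfa3 (-0.36 to 0.051), Stfa2l1 (-0.48 to 0.85) and Csta2 (-0.26 to 0.012). Between B220+ cells and Bach2-vector MPPs they were, with the slide block, Stfa2 (-0.12), Stfa2l1 (-0.82) and Cstdc4 (-0.25), with quantile scaling Csta3 (0.29), and without 1 array Csta3 (-0.39 to 0.42), Stfa2l1 (-0.42 to 0.98), Cstdc4 (-0.12 to 1.98) and Bach1 (-0.13 to 1.10). Against control-vector MPPs they were Bach2 with normexp (0.017), quantile scaling (0.067) and the mean of its probes (1.67), and without 1 array Bach2 (-0.56 to 0.37) and Bach1 (-1.12 to 0.11). In FoB they were Csta2 with quantile scaling (-0.15) and without 1 array (-0.058 to 0.23), and Stfa3 without 1 array (-0.067 to 0.58). The cause was not tested. With 3 arrays a group, and signal near background in FoB and CLPs, small differences of these genes there could not be read.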

Other observations

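Several other protease inhibitor genes were higher in Bach2KO FoB, in a comparison that shares no array with the one the stefin genes were chosen on. The inhibitor list was itself written with earlier results of these data known, so its counts are a description and no independent support. Of the 14 inhibitors listed 8 were above background often enough to be tested, and 4 of these 8 rose, where 2.2% of all genes did. Markers of other cells moved the same way, where 38.1% of all genes were higher. Of 12 granulocyte genes tested 11 were higher, with a median difference of 2.27 and 0 passing. Of 9 monocyte and macrophage genes tested 7 were higher, with 1, Ccl9, passing. Ccl9 and Cx3cr1 were well above background on 3 of 3 Bach2KO and 0 of 3 WT arrays. These genes were thus tested only through the group where they were higher, and nothing is read from their direction. The globin gene Hba-a1 rose by 3.74 ± 0.77 (limma adjusted p = 0.0393). The part of these other cells in the values below was not tested. Serpinb6b, an intracellular serpin gene, was at 5.54, 4.16 and 4.63 in Bach2KO FoB, against -0.49, -0.60 and -1.04 in WT FoB (5.49 ± 0.40, 44.9-fold higher, limma adjusted p = 0.000351). Serpinb9, which encodes an inhibitor of granzyme B, was at 1.20, 0.31 and 1.09 in Bach2KO FoB, against -3.02, -2.84 and -3.02 in WT FoB (3.83 ± 0.34, limma adjusted p = 0.000755). Neither overlapped between the groups. Slpi, which encodes a secreted inhibitor of neutrophil elastase, was at 0.34, 1.93 and 1.49 in Bach2KO FoB, against -3.55, -1.81 and -2.64 in WT FoB (3.92 ± 0.54, limma adjusted p = 0.00579). Timp2, which encodes an inhibitor of matrix metalloproteases, rose by 3.03 ± 0.45 (limma adjusted p = 0.00769), and missed the threshold with normexp (0.0660). Among 5 type 2 cystatins tested Cst7, which encodes the cathepsin inhibitor cystatin F, was at 2.43 to 3.96 in the 3 Bach2KO FoB arrays, against -0.65, -0.72 and -0.83 in WT FoB (3.90 ± 0.41, limma adjusted p = 0.00125). Of the list of cathepsins and legumain 10 were tested, and Ctsw, known from cytotoxic lymphocytes, rose by 3.98 ± 0.56 (limma adjusted p = 0.00615).

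In MPPs the same inhibitor list split. Of all 16988 genes tested, 1.07% rose and 0.724% fell between Bach2-vector and control-vector MPPs. In Bach2-vector against control-vector MPPs 3 of 14 passed: Serpinb6b rose by 3.39 ± 0.35 (10.5-fold, limma adjusted p = 0.00289), and Slpi (-2.74 ± 0.34, 6.67-fold lower, 0.00586) and Wfdc21 (-4.30 ± 0.63, 19.7-fold lower, 0.0117) fell. Without 1 array at a time Wfdc21 reached a limma adjusted p of 0.0584 at the highest, which misses the threshold. Cst7 fell by 1.41 on the log2 scale (limma adjusted p = 0.0331), and missed the threshold with the replicate block (0.0584). It also missed it whichever array was left out (0.0652 to 0.168). Between B220+ Bach2-vector cells and control-vector MPPs 0 of 14 rose and 3 fell, among them Wfdc17 (-2.28, limma adjusted p = 0.00449). Of all genes 4.65% rose and 7.45% fell there. Between B220+ cells and Bach2-vector MPPs 3 rose and 3 fell, where 2.01% of all genes rose and 4.16% fell. Of these inhibitors Serpinb6b fell by 3.90 on the log2 scale (limma adjusted p = 0.000526) and Serpinb9 by 1.99 (0.0378), while Serpinb2 rose by 4.87 (0.0411). Serpinb10 was at least 3.64-fold higher in B220+ cells (adjusted p = 0.0178), a bound because it was not well above background on any Bach2-vector array. The calls of Serpinb9, Serpinb2 and Serpinb10 were lost under some other settings, at adjusted p-values of up to 0.0736, 0.0668 and 0.0854 in that order. Without 1 array at a time they reached 0.122, 0.127 and 0.0754. These comparisons share arrays.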
